A study of Mus musculus with 8 samples.

Results

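The differentiation of mouse embryonic stem (ES) cells labelled as Skp1a knockouts (KO) was followed from the ES cell stage (ESC) to embryoid bodies on day 2 (EBd2). Embryoid bodies are aggregates in which ES cells leave self-renewal and begin to form early embryonic lineages. The libraries were chosen by their titles: 2 of KO EBd2 and 2 of KO ESC, which makes 4 of the 8 libraries in the series. The other 4 libraries, 2 of fl/fl ESC and 2 of fl/fl EBd2, carry the floxed Skp1a allele without a knockout label and serve for comparison. All 8 were grown in what the labels call standard ES or EB medium. The sources used here name no Cre line, deletion protocol, parental line or clone. The KO ESC libraries carry the lot numbers 1 and 12, and the KO EBd2 libraries the lot numbers 1 and 2. The labels do not say whether lots are separate cultures, clones or preparations, so p-values cover spread among these libraries alone, and it may be technical. The tissue field calls every KO library an ES cell and every fl/fl library an embryoid body, which conflicts with the titles. Groups follow the titles, and KO below means labelled KO.

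SKP1 is the adaptor that joins the CUL1 scaffold to F-box proteins in SCF ubiquitin ligases, which mark proteins for degradation by the proteasome. On leaving the ES cell state, cells switch off naive pluripotency factors such as Klf4 and Esrrb and pass through a formative epiblast stage marked by Fgf5, Otx2, Pou3f1 and the DNA methyltransferase Dnmt3b. Cells at the posterior of the embryo then receive Wnt and Nodal signals and switch on primitive streak genes such as T (Brachyury). Mesoderm and definitive endoderm arise from the streak. In embryoid bodies, primitive endoderm forms on the outer surface. The series compares Skp1 wild-type and knockout cells at both stages, and its title concerns PRC2, a complex of the Polycomb group that silences developmental genes.

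The libraries held 22459935 and 21559558 counts in KO ESC and 9260644 and 10055667 counts in KO EBd2, so that depth went with stage. Mitochondrially encoded transcripts took 2.43% and 2.42% of counts in KO ESC and 3.15% and 3.24% in KO EBd2. Values below are CPM (counts scaled to a common library depth, here with the TMM factors of edgeR), given for lots 1 and 12 of KO ESC and then lots 1 and 2 of KO EBd2, unless stated otherwise. Differences are log2 fold changes of EBd2 against ESC ± standard error, with n = 2 libraries per group. A gene was called changed at a Benjamini-Hochberg adjusted p under 0.05 in the edgeR quasi-likelihood test. In bulk RNA, fewer cells of a type and less RNA per cell cannot be told apart.

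The transcript of the targeted gene was present in every library. Skp1a (chromosome 11, 52231995 to 52246858, plus strand, GRCm38) was at 368.9 and 361.3 CPM in KO ESC and at 285.8 and 289.6 CPM in KO EBd2. In fl/fl libraries it was at 420.2 and 430.3 CPM in ESC and at 401.4 and 389.1 CPM in EBd2. All 4 KO libraries were below all 4 fl/fl libraries, but counts summed over a whole gene do not show whether an exon is missing, and the sources used here do not name the deleted part. The difference between KO EBd2 and KO ESC was -0.34 ± 0.03 (adjusted p = 3.86e-06), and the difference between the KO and fl/fl responses was -0.24 ± 0.05 (adjusted p = 0.00159). Both sizes depend on the TMM scale. Scaling by library size alone moved the median of all genes upward by 0.15 in the KO contrast and by 0.16 in the difference between the responses.

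Of 16542 genes tested, 10721 (64.8%) were called changed between KO EBd2 and KO ESC. Of these, 5248 were higher (31.7%) and 5473 lower (33.1%) in EBd2. Scaling by library size alone, with no TMM factors, gave 6665 higher and 4106 lower and moved the median of all genes by 0.15, so that changes are relative to the TMM scale. Differences of at least 2-fold were found in 1918 genes that were higher (11.6%) and 1327 that were lower (8.02%). The median over all genes tested was 0.00, and the median size of a called difference was 0.63. With each library so close to its partner, small differences were called: the biological coefficient of variation was 3.40%. Because nearly all lists of genes hold many called members on this background, each list is described by its counts and median beside these values. A gene that is high in 1 group passes the filter on low counts through that group, so the members tested are not all members of a list.

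The 10 genes with the largest rise were Apob, Ttr, Sprr2a2, Aqp8, Spink1, Nkx1-2, Prdm6, Cdx2, T and Dkk1. Apob, which encodes the apolipoprotein of yolk sac and liver lipoproteins, was at 0.847 and 0.742 CPM in KO ESC and at 178.5 and 178.2 CPM in KO EBd2, a difference of 7.79 ± 0.10 (adjusted p = 1.1e-12). Ttr, which encodes the thyroid hormone carrier transthyretin and marks visceral endoderm, rose by 7.46 ± 0.28 from 1 and 4 counts to 230 and 226 counts. Cdx2 and T encode transcription factors of the posterior embryo, and Dkk1 encodes a secreted Wnt antagonist. Aqp8, which encodes a water channel, rose by 7.12 ± 0.26, the secreted protease inhibitor gene Spink1 by 7.01 ± 0.16 and Prdm6 by 6.45 ± 0.38.

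**Figure D1:**
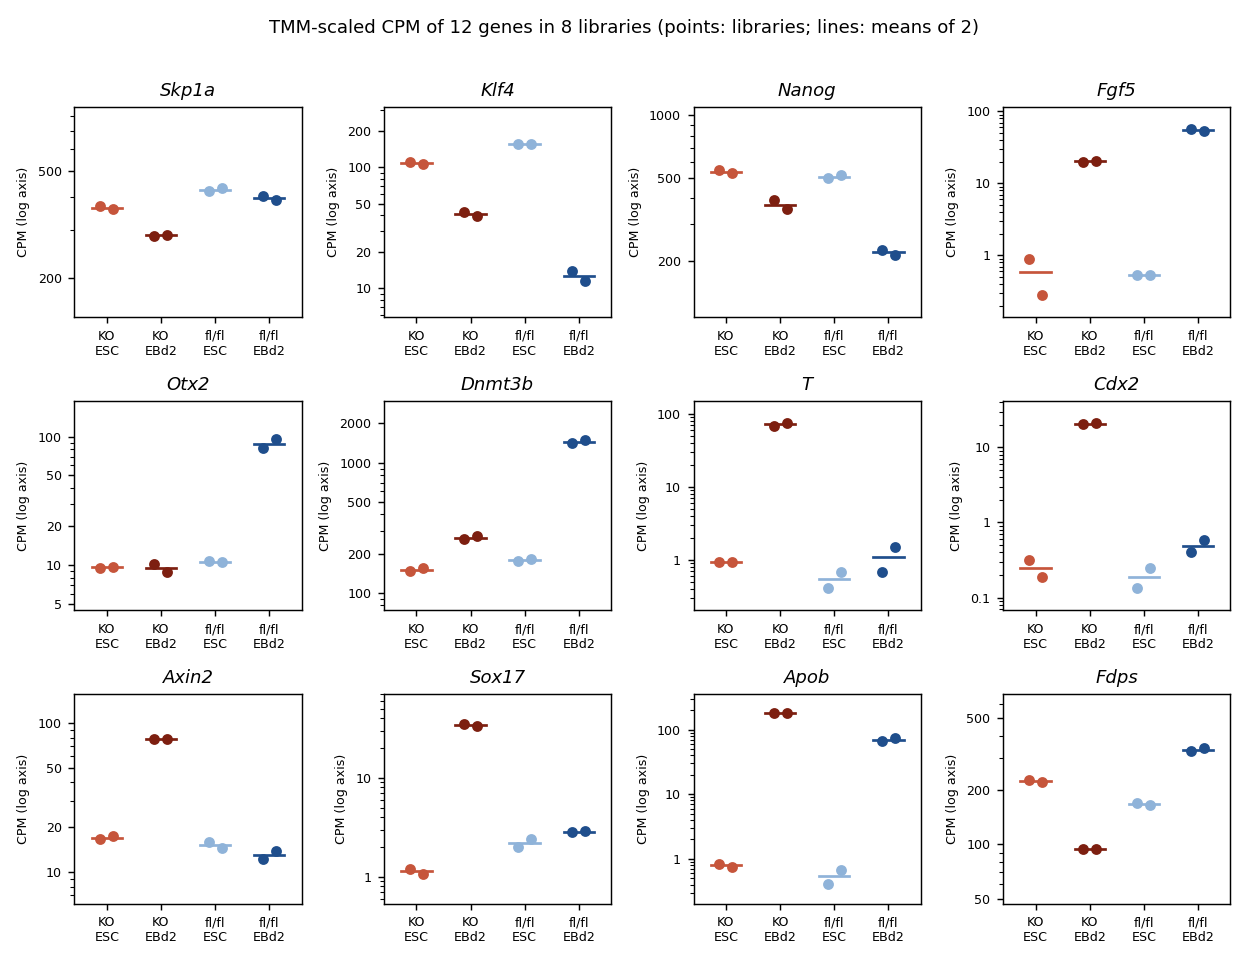
Levels of 12 genes in CPM on log axes in KO ESC, KO EBd2, fl/fl ESC and fl/fl EBd2; points are libraries and lines are means of 2. T, Cdx2, Axin2 and Sox17 stand highest in KO EBd2, whereas Otx2 lies near 10 CPM in all groups except fl/fl EBd2.

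Naive pluripotency genes were lower in KO EBd2, with exceptions. Of 17 listed and tested, 12 fell and 4 rose, with a median of -0.64. Klf4, a factor that holds ES cells in the naive state, was at 111.7 and 107.2 CPM in KO ESC and at 42.4 and 39.5 CPM in KO EBd2, a fall of 1.42 on the log2 scale (standard error 0.05, adjusted p = 2.08e-09). Esrrb, an orphan nuclear receptor of the naive network, changed from 373.2 and 385.1 CPM to 157.7 and 151.8 CPM (-1.29 ± 0.05). Nanog went from 547.3 and 527.9 CPM to 391.9 and 354.9 CPM (-0.53 ± 0.05). Tbx3, a T-box factor of naive cells and of endoderm, went the other way, from 101.4 and 101.4 CPM to 165.6 and 165.8 CPM (0.71 ± 0.04, adjusted p = 2.22e-08). The libraries of the stages did not overlap in any of these 4 genes.

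The fall of the naive genes differed from that in fl/fl cells. In fl/fl cells 15 of the 17 genes fell and 1 rose, with a median of -1.21; of all genes tested, 59% were called there, 28.9% higher and 30.1% lower. The difference between the responses was itself tested as an interaction, which was called in 48% of all genes, 22.4% with a higher and 25.7% with a lower response in KO. Klf4 fell by 3.63 on the log2 scale in fl/fl, and the KO response was higher by 2.21 ± 0.10 (adjusted p = 3.86e-08). For Tbx3 the fl/fl change was -1.77, and the KO response was higher by 2.48 ± 0.06 (adjusted p = 1.71e-09). The Nanog response was higher in KO by 0.68 ± 0.07 (adjusted p = 9.78e-06). Across the list, the KO response was higher in 11 genes and lower in 4.

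The LIF and STAT3 genes, which carry the cytokine signal that keeps ES cells naive, numbered 11, of which 8 fell and 1 rose (median -0.64). Klf4 is on this list and on the naive list, so their falls are not separate observations. Socs3, the feedback inhibitor that STAT3 switches on, went from 99.8 and 99.1 CPM in KO ESC to 39.1 and 35.6 CPM in KO EBd2 (-1.41 ± 0.05). Stat3 itself differed by 0.03 (adjusted p = 0.63). Among general pluripotency genes, 8 of 13 fell and 3 rose (median -0.34). Pou5f1, which encodes OCT4, was at 834.3 and 793.6 CPM in KO ESC and at 583.3 and 572.7 CPM in KO EBd2 (-0.49 ± 0.04), and Sox2 changed by -0.79 ± 0.03.

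Formative and primed epiblast genes moved unevenly. Of 23 tested of 24 listed, 15 rose and 5 fell in KO, with a median of 0.46. Fgf5, the classical marker of the post-implantation epiblast, rose from 0.892 and 0.278 CPM to 20.1 and 20.5 CPM (5.08 ± 0.22, adjusted p = 5.7e-09). Otx2, a transcription factor that drives the exit from the naive state, was at 9.54 and 9.73 CPM in KO ESC and at 10.2 and 8.85 CPM in KO EBd2, a difference of -0.02 ± 0.13 that was not called (adjusted p = 0.897). The Otx2 libraries of the stages overlapped. Pou3f1, which encodes OCT6, rose by 0.46 ± 0.10 from 13.9 and 13.3 CPM to 17.7 and 19.7 CPM.

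In fl/fl cells 21 of the 23 genes rose and 2 fell, with a median of 1.70. Otx2 rose there by 3.06, to 81.5 and 96.0 CPM, and the KO response was lower by 3.08 on the log2 scale (-3.08 ± 0.16, adjusted p = 7.44e-08). For Pou3f1 the KO response was lower, at -2.88 ± 0.13 relative to fl/fl (adjusted p = 2.93e-08). The de novo methyltransferase gene Dnmt3b rose in KO from 146.3 and 154.3 CPM to 257.8 and 271.9 CPM (0.82 ± 0.05). In fl/fl EBd2 Dnmt3b reached 1405 and 1499 CPM, and its KO response differed by -2.21 ± 0.06 (adjusted p = 2.77e-09). Fgf5 had the smallest estimate of these, with a KO response of -1.59 ± 0.46 relative to fl/fl (adjusted p = 0.0143). Over the list, the KO response was lower in 17 genes and higher in 4.

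Wnt target genes were mostly higher in KO EBd2. Starts and upstream sequences are shown for 3 of the 4 Wnt targets with the smallest p (Sp5, T and Axin2), to set genes that rose by unlike amounts beside their proximal sequence. Each sequence is the RefSeq promoter window of 250 bases that ends at the base before the start (GRCm38.p6), written 5′ to 3′ on the gene's strand. The starts of these 3 genes are the same in GENCODE vM21. Capitals mark the TCF/LEF core TCAAAG and the T-box element AGGTGT on either strand (CTTTGA and ACACCT when read from the other strand); the motifs do not overlap each other.
Sp5, chr2:70474673-70474922, plus strand: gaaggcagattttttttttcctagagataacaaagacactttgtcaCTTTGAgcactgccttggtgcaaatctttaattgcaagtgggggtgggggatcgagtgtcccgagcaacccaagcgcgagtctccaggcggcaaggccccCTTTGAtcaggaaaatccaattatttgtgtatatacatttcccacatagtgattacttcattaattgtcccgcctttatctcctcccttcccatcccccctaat
T, chr17:8434173-8434422, plus strand: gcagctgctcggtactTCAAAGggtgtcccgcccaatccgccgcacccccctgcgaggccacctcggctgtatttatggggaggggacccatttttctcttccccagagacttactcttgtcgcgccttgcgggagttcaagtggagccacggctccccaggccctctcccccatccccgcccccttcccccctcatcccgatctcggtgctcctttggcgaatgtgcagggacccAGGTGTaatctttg
Axin2, chr11:108920099-108920348, plus strand: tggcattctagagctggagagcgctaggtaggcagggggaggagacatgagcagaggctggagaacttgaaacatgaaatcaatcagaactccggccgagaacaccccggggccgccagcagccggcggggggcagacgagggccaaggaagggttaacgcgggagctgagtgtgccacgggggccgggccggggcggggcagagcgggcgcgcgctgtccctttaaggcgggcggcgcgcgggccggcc
The Sp5 window holds 2 TCF/LEF cores, whose first bases lie 204 and 104 bases before the start. The T window holds 1 TCF/LEF core at 234 bases and 1 T-box element at 14 bases before the start. The Axin2 window holds neither, and the window of Dkk1, not printed, holds 2 TCF/LEF cores. Of 32817 RefSeq promoter windows of this length, 13.8% hold at least 1 TCF/LEF core, 1.36% hold 2 or more and 11.8% hold a T-box element. Of the 18 Wnt target genes, 11 matched the RefSeq table, with 17 promoters, of which 5 hold a TCF/LEF core and 4 a T-box element. Only TCAAAG and AGGTGT were searched, on either strand, so other forms of these elements are neither marked nor counted. A match is a description of letters and not a bound site.

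Of the 18 Wnt target and feedback genes listed and tested, 15 rose and 1 fell in KO, with a median of 1.78. Sp5, which encodes a zinc finger factor induced directly by Wnt signals, was at 2.45 and 2.23 CPM in KO ESC and at 61.0 and 59.4 CPM in KO EBd2 (4.68 ± 0.10, adjusted p = 4.56e-11). Axin2, the universal feedback inhibitor of the pathway, went from 16.7 and 17.4 CPM to 78.6 and 77.8 CPM (2.20 ± 0.07). Dkk1 rose from 0.669 and 0.927 CPM to 64.0 and 57.8 CPM (6.24 ± 0.14). All KO EBd2 libraries lay above all KO ESC libraries for these 3 genes. The rule that ranked Dkk1 and Sp5 among the largest changes asked for this, so it adds no support. Lef1, a TCF/LEF factor, rose by 2.48 ± 0.17 and Notum, a secreted Wnt deacylase, by 2.70, whereas Tcf7 was not called (-0.05, adjusted p = 0.294) and Dact1 fell by 0.32 on the log2 scale.

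In fl/fl cells 9 of the 18 rose and 3 fell, with a median of 0.28. The KO response was higher in 11 genes and lower in 3. For Axin2 the KO response was higher by 2.42 ± 0.12 (adjusted p = 5.79e-08), and for Dkk1 by 4.27 ± 0.39 (adjusted p = 4.5e-06). Sp5 had only 1 and 1 counts in fl/fl EBd2, against 623 and 664 counts in KO EBd2 (adjusted p of the interaction = 8.57e-08). The 42 Wnt ligand and receptor genes did not share this direction: of 38 tested, 13 rose and 13 fell (median 0.04). The ligand genes Wnt8a (4.08 ± 0.14) and Wnt3 (1.97 ± 0.22) rose, while Wnt3a, from 4.37 and 4.12 CPM to 1.18 and 0.626 CPM, changed by -2.24 ± 0.42. The antagonist Sfrp1 changed by -1.70 ± 0.08.

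Primitive streak and Nodal genes rose in 13 of 18 tested members, of 20 listed, and fell in 3 (median 2.00). The members tested include genes that can have passed the filter on low counts through KO EBd2 alone, such as Evx1. T (chromosome 17, 8434423 to 8442496, plus strand) was at 0.936 and 0.927 CPM in KO ESC and at 68.2 and 75.9 CPM in KO EBd2, a rise of 6.26 ± 0.15 (adjusted p = 7.52e-11). In fl/fl EBd2, T had 5 and 13 counts, and its KO response was higher by 5.22 ± 0.53 (adjusted p = 1.05e-05). Mixl1, a homeobox gene of the streak, rose from 14 and 7 counts to 130 and 133 counts (4.67 ± 0.27), and Eomes, a T-box gene needed for endoderm, rose by 2.16 ± 0.09. Nodal, the signal that patterns the streak, went from 45.7 and 46.0 CPM to 169.5 and 157.2 CPM (1.83 ± 0.05). The Nodal inhibitor gene Lefty1 fell by 0.41 on the log2 scale and Lefty2 by 0.26, the latter not called without KO EBd2 lot 2 (-0.15, adjusted p = 0.0808). Fgf8 was not called (0.72 ± 0.67, adjusted p = 0.367), and Mesp1, which marks the earliest mesoderm, did not pass the filter on low counts. Of the 20 streak genes, 14 matched the RefSeq table, with 16 promoters, of which 4 hold a TCF/LEF core and 6 a T-box element.

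Genes of the caudal epiblast and tailbud, the region that extends the body axis, rose in 10 of 16 tested members of 18 listed and fell in 3 (median 2.18). Cdx2 and Evx1 were low in every group but KO EBd2, which alone can carry a gene past the filter on low counts. Nothing is therefore read from this count of rises. Cdx2 rose from 7 and 4 counts to 206 and 235 counts (6.32 ± 0.23). Nkx1-2, a marker of neuromesodermal progenitors, rose from 4 and 9 counts to 373 and 321 counts (6.75 ± 0.30), and Evx1 from 7 and 2 counts to 73 and 79 counts (5.07 ± 0.44). Cdx1 rose by 1.85 ± 0.12, from 6.69 and 7.09 CPM to 27.1 and 22.5 CPM. The responses of Cdx2, Nkx1-2 and Cdx1 were higher in KO than in fl/fl by 4.95 ± 0.71, 6.51 ± 1.16 and 6.55 ± 0.34, with adjusted p of 0.000159, 0.000741 and 8.09e-08. Cdx2 had 3 and 5 counts in fl/fl ESC and 3 and 5 in fl/fl EBd2, so the size of its difference is uncertain. Cdx1 had 2 and 2 counts in fl/fl EBd2, where it had fallen from 159 and 127 counts in fl/fl ESC.

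Nascent mesoderm and haemangioblast genes gave a mixed picture: 10 of 18 tested, of 22 listed, rose and 3 fell (median 1.04). Here too a gene can pass the filter on low counts through KO EBd2 alone, so nothing is read from the count of rises. Pdgfra, a receptor gene of early mesoderm and primitive endoderm, rose from 10.3 and 9.36 CPM to 56.9 and 52.3 CPM (2.47 ± 0.10). The apelin receptor gene Aplnr had 2 counts in total in KO ESC and 45 in KO EBd2, a ratio of 46.3 at equal depth (95% counting interval 12.1 to 394). Tbx6, a paraxial mesoderm gene, was at 21 and 21 counts in KO ESC and 2 and 6 counts in KO EBd2 (-1.34 ± 0.51, adjusted p = 0.0364). That call of Tbx6 was lost without KO EBd2 lot 1 (adjusted p = 0.229), without either KO ESC lot (adjusted p = 0.0876 without lot 1 and 0.101 without lot 12) and without either fl/fl ESC lot (0.0619 and 0.0628). The 3 falls, Tbx6, Foxc2 and Mesp2, were 0 calls without KO EBd2 lot 1 or KO ESC lot 12.

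Of 26 genes listed for definitive and primitive endoderm, 25 were tested, and all 25 tested rose, with a median of 2.91. The list's summed level was 2062 and 2133 CPM in KO ESC and 7057 and 6905 CPM in KO EBd2. Among the regulators, Gata6 rose from 5.17 and 5.33 CPM to 42.1 and 40.1 CPM (2.97 ± 0.09) and Gata4 by 2.81 ± 0.10. Sox17 (chromosome 1, 4490931 to 4497354, minus strand), which specifies both kinds of endoderm, rose from 1.20 and 1.07 CPM to 35.3 and 33.5 CPM (4.91 ± 0.13). Foxa2 rose by 4.84 ± 0.28. No KO ESC library reached a KO EBd2 library in any of these genes.

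Dab2 and Cubn, from the same endoderm list, act in endocytosis in visceral endoderm. Dab2, an adaptor for receptor uptake, went from 21.7 and 22.1 CPM to 286.7 and 295.8 CPM (3.73 ± 0.04, adjusted p = 5.23e-13). Cubn, which encodes the uptake receptor cubilin, went from 34.1 and 32.6 CPM to 551.2 and 531.4 CPM (4.02 ± 0.07). Among basement membrane genes, Col4a1 went from 175.6 and 180.1 CPM to 1309 and 1280 CPM (2.86 ± 0.03). In fl/fl, 14 of the 25 rose and 4 fell (median 0.58), and the KO response was higher in 19 and lower in 0.

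The endoderm genes did not all differ between genotype labels. For Apob the interaction was not called (0.79 ± 0.36, adjusted p = 0.0979), and the gene rose by 7.01 in fl/fl cells. The Gata6 response was higher in KO by 2.65 ± 0.15 (adjusted p = 1.79e-07) and the Sox17 response by 4.52 ± 0.25 (adjusted p = 1.19e-07). In fl/fl, Sox17 was not called between the stages (0.39, adjusted p = 0.19).

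**Figure D2:**
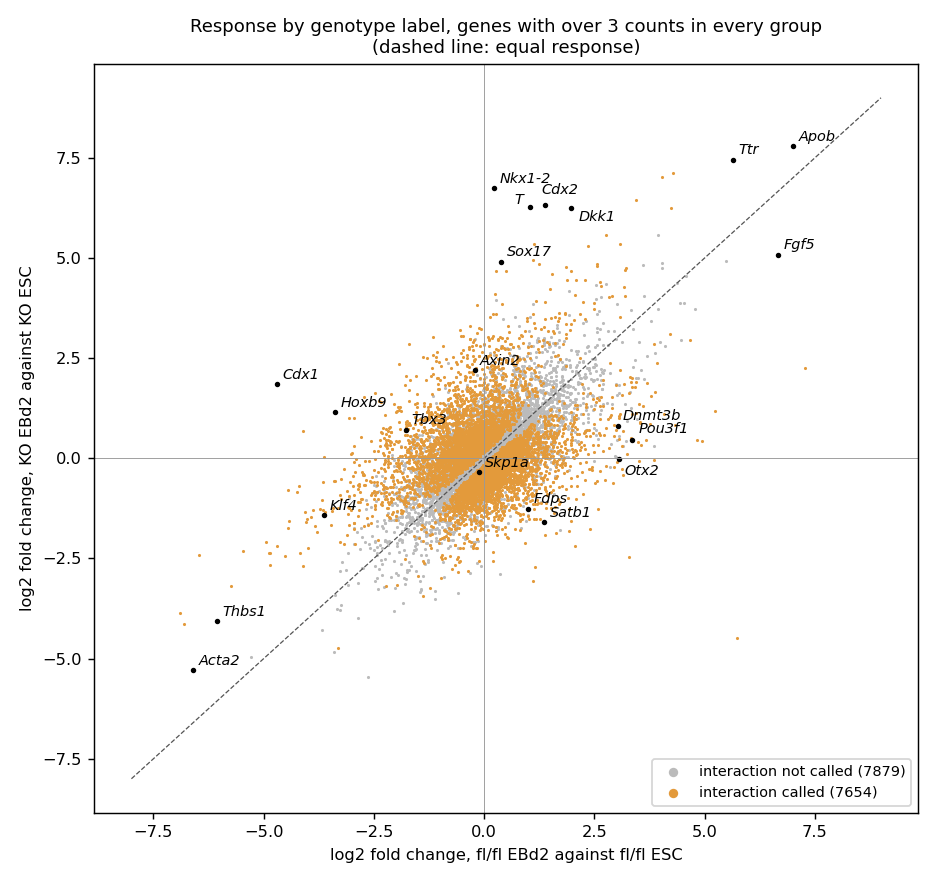
Log2 fold change of EBd2 against ESC in KO (vertical axis) and in fl/fl (horizontal axis) for the 15533 genes with over 3 counts in every group; points are genes, the 7654 with a called interaction are orange, and the dashed line marks equal responses. T, Cdx2, Nkx1-2 and Sox17 lie far above the line, Otx2, Pou3f1 and Dnmt3b below it, and Apob close to it.

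Epithelial genes of extra-embryonic and surface ectoderm type were also higher. Of 15 trophectoderm genes tested (16 listed), 10 rose and 3 fell (median 1.23), and of 20 surface ectoderm and keratinocyte genes tested (22 listed), 15 rose and 2 fell (median 0.96). Krt8, a keratin gene of simple epithelia, rose from 78.3 and 82.9 CPM to 350.5 and 344.1 CPM (2.11 ± 0.04), and its partner Krt18 by 1.59 ± 0.04. Sprr2a2, of the cornified envelope family, went from 16 and 9 counts to 905 and 974 counts (7.25 ± 0.16). Its copy Sprr2a1 had 0 counts in KO ESC and 62 in KO EBd2, at least 42.5-fold higher against a floor of 3 counts over the group. The Sprr2a copies are near-identical and the counting of shared reads is unknown, so their single values are uncertain. Tfap2c (-0.88), on both lists, and the trophectoderm gene Esx1 (-0.85) fell. The trophectoderm list shares Krt7, Krt19, Tfap2a and Tfap2c with the keratinocyte list, Cdx2 with the caudal list and Eomes with the streak list. T and Sp5 are each on the Wnt target, streak and caudal lists. The rises of these lists are therefore not separate observations.

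Neuroectoderm genes showed no common direction. Of 12 tested of 19 listed, 6 rose and 3 fell (median 0.47), and the other 7 were too low to test. Sox1, the earliest neural plate gene, changed from 72 and 60 counts to 6 and 14 counts (-1.68 ± 0.31), and Pax6 was not called (0.67 ± 0.29, adjusted p = 0.0569). Without KO ESC lot 12 Pax6 was called higher (0.92, adjusted p = 0.0401). Six3 rose from 2 and 3 counts to 22 and 15 counts (3.84 ± 0.66). 

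**Figure D3:**
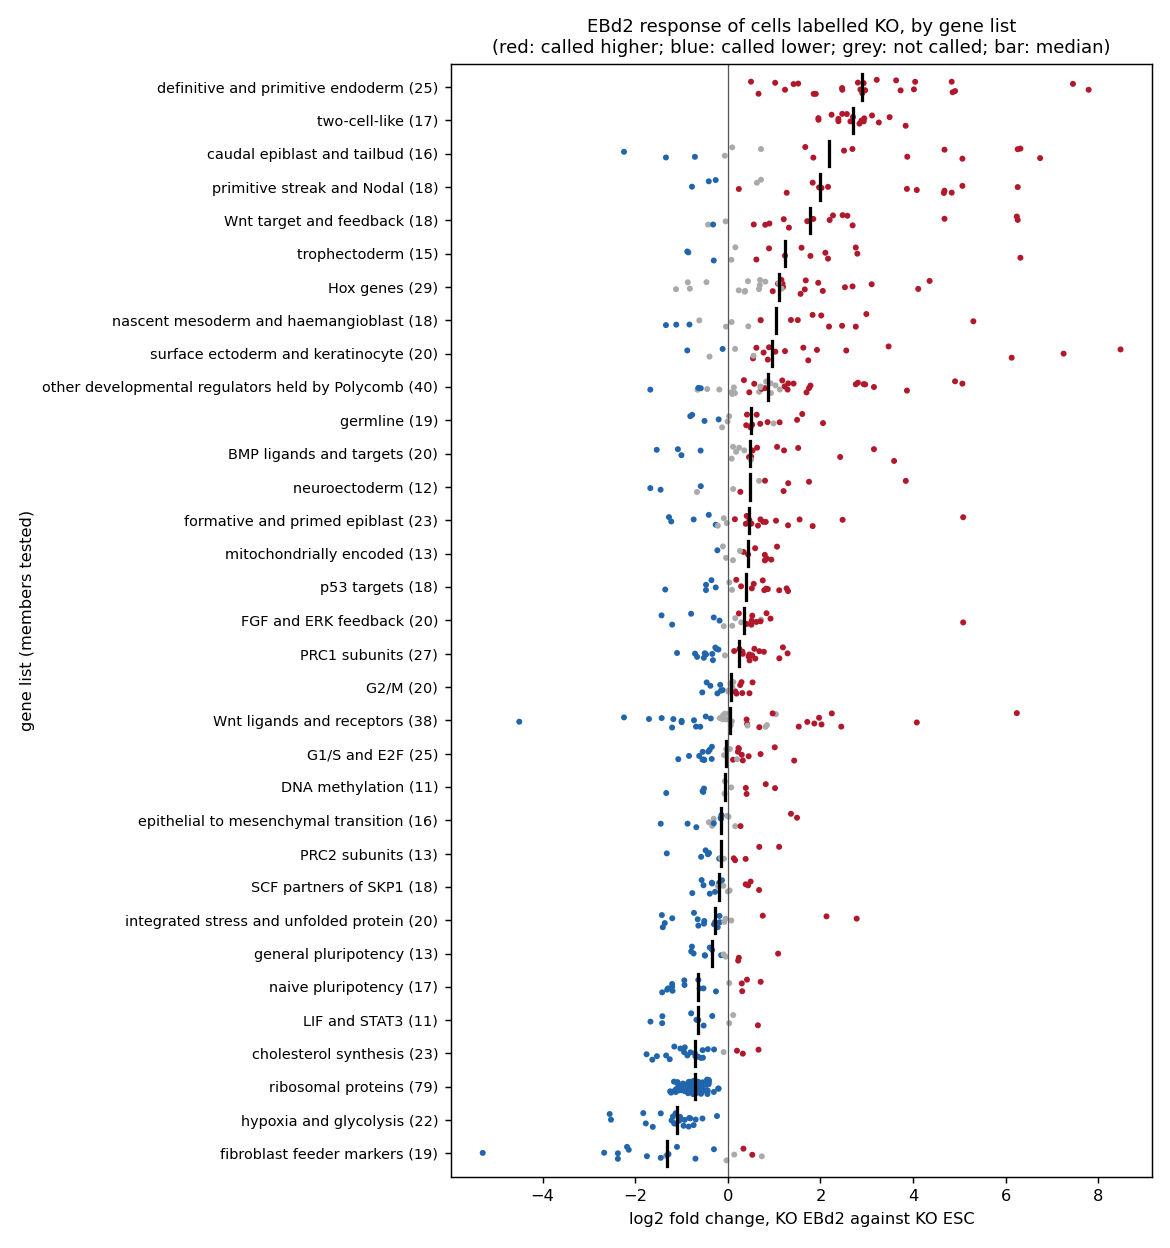
Log2 fold change of KO EBd2 against KO ESC for the tested members of 33 gene lists, with the number tested in brackets; red points were called higher, blue points lower and grey points were not called, and black bars are medians. The endoderm list (median 2.91) is at the top and the fibroblast feeder list (median -1.31) at the bottom.

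BMP ligands and targets rose in 10 of 20 tested (21 listed) and fell in 4 (median 0.48), with Msx2 up by 2.43 ± 0.19, Id1 up by 1.06 ± 0.08 and the inhibitor gene Smad6 at -1.54 ± 0.12. FGF and ERK feedback genes rose in 10 of 20 and fell in 5 (median 0.35). Fgf4, the ES cell ligand of this pathway, went from 278.9 and 280.4 CPM to 123.4 and 119.6 CPM (-1.20 ± 0.03). Genes of epithelial to mesenchymal transition gave 3 rises and 7 falls among 16 (median -0.15), and 3 falls with library size scaling alone. Vim (-1.45 ± 0.04) and Fn1 (-0.87 ± 0.05), the members of this list with the smallest p, fell. Vim is also on the fibroblast feeder list and Fgf4 on the naive list, so these lists are not separate observations. Cdh1, which encodes E-cadherin, was at 573.3 and 585.0 CPM in KO ESC and at 580.6 and 563.3 CPM in KO EBd2 (-0.02 ± 0.03, adjusted p = 0.646). Among the 3 rises were Cdh2, which encodes N-cadherin (1.49 ± 0.09), and Snai1 (1.36 ± 0.14).

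Hox genes, which are classical Polycomb targets, rose in 15 of 29 tested members of 39 listed and fell in 0 (median 1.10). Most had few counts: with a filter of at least 5 CPM in at least 2 libraries, 5 of them were still tested and called higher. Because KO EBd2 alone can carry a gene past that filter, the 5 add no support to the rises. Hoxb1 rose from 4 and 5 counts to 46 and 47 counts (4.36 ± 0.46) and Hoxa11 from 7 and 10 counts to 68 and 78 counts (4.11 ± 0.31). Hoxb9 went from 4.86 and 4.87 CPM to 11.3 and 10.5 CPM (1.16 ± 0.15). Hoxb9 fell in fl/fl, from 73 and 69 counts to 1 and 4 counts, and its response was higher in KO by 4.54 ± 0.38 (adjusted p = 2.44e-06). In fl/fl, 1 of the 29 rose and 14 fell (median -1.85), and the KO response was higher in 20 and lower in 0.

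Lineage regulators that Polycomb keeps silent in ES cells, outside the Hox clusters, rose in 21 of 40 tested (52 listed) and fell in 3 (median 0.88). The list holds Sox17, Gata4 and Gata6, which are described above. Of 13 PRC2 genes tested (14 listed), 5 rose and 6 fell (median -0.15). The methyltransferase gene Ezh2 went from 244.5 and 247.5 CPM to 214.4 and 217.5 CPM (-0.19 ± 0.04, adjusted p = 0.00122), but with library size scaling alone it was not called (-0.04, adjusted p = 0.385). Eed was not called (-0.08 ± 0.05, adjusted p = 0.149), though it was without KO ESC lot 12 (-0.14, adjusted p = 0.0405), and Suz12 changed by -0.48 ± 0.03. Epop, an accessory subunit gene, rose by 1.11 ± 0.05 and Ezh1 fell by 1.32 on the log2 scale. Among 27 PRC1 genes, 15 rose and 11 fell (median 0.25).

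Of 18 genes for SCF partners of SKP1, 4 rose and 9 fell (median -0.19). Cul1, the scaffold, rose from 98.5 and 100.5 CPM to 142.8 and 137.2 CPM (0.49 ± 0.04). Fbxw7, the F-box gene whose protein targets cyclin E, rose by 0.68 ± 0.05. Skp2, whose protein targets the CDK inhibitor p27, rose by 0.44 ± 0.05, and Cdkn1b, which encodes p27, fell from 56.9 and 53.2 CPM to 27.3 and 25.4 CPM (-1.06 ± 0.06). The cyclin E genes Ccne1 (0.45 ± 0.03) and Ccne2 (1.43 ± 0.06) both rose. These are RNA levels; the proteins that SCF ligases degrade were not measured here.

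Cell cycle lists had no common direction in KO: G1/S and E2F genes rose in 10 of 25 and fell in 11 (median -0.04). The G2/M genes rose in 8 of 20 and fell in 7 (median 0.08), but with library size scaling alone 13 rose and 3 fell. Targets of p53 rose in 11 of 18 and fell in 5 (median 0.40). Cdkn1a, which encodes the CDK inhibitor p21, went from 78.0 and 78.3 CPM to 141.3 and 136.7 CPM (0.83 ± 0.04), and its response was higher in KO by 1.03 ± 0.06 (adjusted p = 1.42e-07). Btg2 rose by 1.30 ± 0.06, Plk2 by 1.27 ± 0.04 and the BH3-only gene Pmaip1 by 1.11 ± 0.05.

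Genes of the 2-cell-like state, a rare ES cell state that expresses early embryonic genes, rose in 17 of 17 tested members of 20 listed (median 2.70). The summed level of the list was 22.6 and 22.1 CPM in KO ESC and 134.9 and 140.1 CPM in KO EBd2. Zscan4f, a telomere-linked zinc finger gene, went from 8.47 and 6.81 CPM to 40.5 and 39.7 CPM (2.39 ± 0.12), with a response higher in KO by 2.00 ± 0.24 (adjusted p = 4.3e-05). These genes lie in multicopy families (Zscan4, Usp17l, Tcstv) that can share reads, so they are not 17 separate observations. With the stricter filter 9 were tested and called. A gene can pass that filter through KO EBd2 alone, so nothing is read from this count. Germline genes rose in 11 of 19 tested (20 listed) and fell in 4 (median 0.49), among them Taf7l, from 121 and 108 counts to 224 and 239 counts (2.06 ± 0.13).

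All 22 glycolysis and hypoxia genes, all of them tested, fell (median -1.09). Their summed level was 20477 and 20429 CPM in KO ESC and 10703 and 10271 CPM in KO EBd2. Pgk1, a glycolytic enzyme gene, went from 1722 and 1647 CPM to 513.1 and 473.2 CPM (-1.77 ± 0.05), and Bnip3, a mitophagy receptor gene induced by HIF, from 243.4 and 221.4 CPM to 41.5 and 37.7 CPM (-2.55 ± 0.07). In fl/fl, 20 of the 22 fell and 0 rose (median -0.91), and the KO response was lower in 14 and higher in 4.

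Of 23 cholesterol synthesis genes, 19 fell and 3 rose (median -0.71). Fdps, which encodes farnesyl diphosphate synthase, went from 226.5 and 221.5 CPM to 93.9 and 93.7 CPM (-1.26 ± 0.04, adjusted p = 5.23e-10). Mvd changed by -1.76 ± 0.06 and Insig1, the sterol sensor that holds SREBP in the endoplasmic reticulum, by -1.63 ± 0.03. In fl/fl the direction was the opposite, with 19 of 23 higher and 2 lower (median 0.50), and Fdps reached 327.6 and 341.8 CPM. The Fdps response was lower in KO (-2.26 ± 0.05, adjusted p = 8.79e-10), and over the list the KO response was lower in 22 genes and higher in 1.

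All 79 ribosomal protein genes, all of them tested, fell (median -0.72). They summed to 60344 and 57783 CPM in KO ESC and to 35125 and 33489 CPM in KO EBd2. Rpl3 went from 2388 and 2327 CPM to 1067 and 1038 CPM (-1.16 ± 0.04). In fl/fl, 39 fell and 9 rose (median -0.11), and the KO response was lower in 77 and higher in 0. Of 13 mitochondrially encoded genes, 8 rose and 1 fell (median 0.44). Pseudogenes took 3.54% and 3.37% of counts in KO ESC and 2.86% and 2.76% in KO EBd2, and whether reads shared with their parent genes bear on the ribosomal values was not tested. Of 20 integrated stress and unfolded protein response genes, 14 fell and 3 rose (median -0.29), with 9 falls under library size scaling alone. Atf4, the central factor of that response, went from 239.1 and 229.3 CPM to 92.1 and 85.0 CPM (-1.41 ± 0.05), while Atf3 rose by 2.78 ± 0.12.

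**Figure D4:**
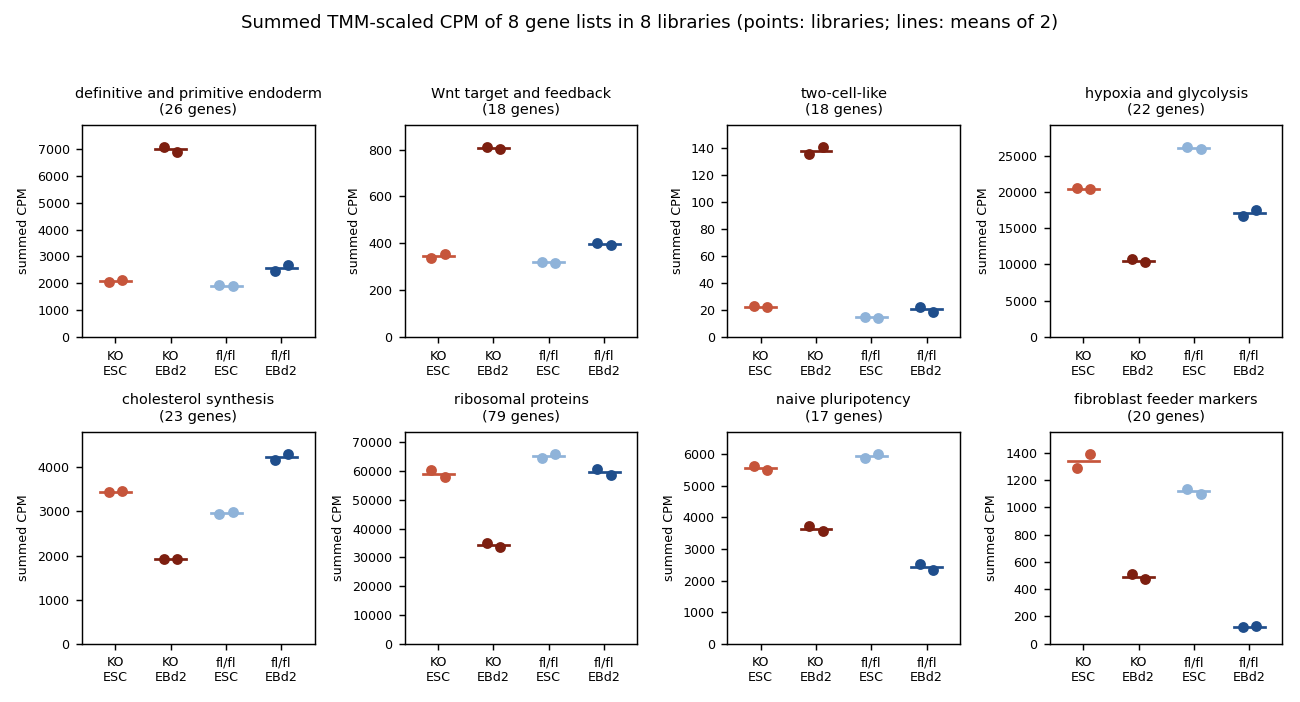
Summed CPM of 8 gene lists on linear axes that start at 0, in KO ESC, KO EBd2, fl/fl ESC and fl/fl EBd2; points are libraries and lines are means of 2. Endoderm, Wnt target and 2-cell-like sums are highest in KO EBd2, where the cholesterol, ribosomal and glycolysis sums are lowest.

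The 10 genes with the largest fall in KO were Ankrd1, Cavin2, Acta2, Col8a1, Acta1, Lox, Thbs1, Adamts5, Col12a1 and Svep1, most of which encode contractile, matrix and adhesion proteins of mesenchymal cells. Acta2, the smooth muscle actin gene, went from 62.9 and 66.3 CPM to 1.27 and 1.97 CPM (-5.30 ± 0.13), and Thbs1, a matrix glycoprotein gene, from 718.0 and 810.6 CPM to 42.7 and 48.1 CPM (-4.07 ± 0.08). Ankrd1 had 252 counts in KO ESC and 2 in KO EBd2, a ratio of 61.2 at equal depth (95% counting interval 16.8 to 508). Markers of fibroblast feeder cells moved the same way: 13 of 19 tested (20 listed) fell and 2 rose (median -1.31), and the list summed to 1290 and 1390 CPM in KO ESC and to 512.4 and 473.6 CPM in KO EBd2. Of the 19, 0 were at 0 counts in KO EBd2. The sources used here do not say whether feeder cells were used, and the part of such cells in these falls, or in any other result, was not tested. In fl/fl the sum went from 1139 and 1097 CPM to 123.7 and 127.3 CPM. The response was higher in KO for Acta2 by 1.30 ± 0.45 (adjusted p = 0.0323) and for Col1a1, the type I collagen gene, by 2.49 ± 0.17 (adjusted p = 5.47e-07).

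Of the genes that were at least 2-fold higher in KO EBd2, 584 were also at least 2-fold higher in fl/fl EBd2 (30.4% of the KO genes and 47.3% of the fl/fl genes), 83 were at least 2-fold lower there and 1251 met neither criterion, on a background of 7.47% of genes higher and 9.49% lower by that rule in fl/fl. The interaction was called in 706 of those 1251, beside 48% of all genes; genes chosen for passing in KO and not in fl/fl favour such calls, so nothing is read from this count. Of the genes at least 2-fold lower in KO EBd2, 578 were also lower in fl/fl (43.6% of the KO genes and 36.8% of the fl/fl genes), 30 were higher there and 719 met neither criterion, of which 455 had a called interaction, chosen in the same way. The genes with the largest positive interaction were Msln, Krtdap, Sprr2a2, Sp5, Cnga4 and Mageb4, each with 3 counts or fewer in fl/fl EBd2, so that their fitted differences depend on the prior count. Msln, which encodes the surface protein mesothelin, was at 20.3 and 18.9 CPM in KO ESC and at 27.3 and 31.3 CPM in KO EBd2, while its 160 counts in fl/fl ESC became 0 in fl/fl EBd2.

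Among the largest negative interactions were those of Myb (-3.19 ± 0.15), Gulp1 (-3.04 ± 0.27), Cthrc1 (-2.97 ± 0.22), Satb1 (-2.96 ± 0.20) and Zfp608 (-2.90 ± 0.21). Myb, a proto-oncogene transcription factor, went from 20.7 and 21.6 CPM in KO ESC to 9.99 and 7.69 CPM in KO EBd2 (-1.26 ± 0.12) but rose by 1.93 in fl/fl. Satb1, a chromatin organiser, changed by -1.59 ± 0.17 in KO and by 1.37 in fl/fl.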

How the data were processed

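The authors deposited 1 table of raw counts per gene symbol (36255 genes, 8 libraries of poly(A)-selected RNA), without normalization. The submitters' processing notes name Trim Galore 0.6.7, GRCm38 and mm10. The sources used here give no aligner, counter, annotation, strand setting or rule for shared reads. All count columns were mapped to samples by title, and 0 columns were left unmapped. Of the symbols, 34777 (95.9%) matched GENCODE vM21. Among 10405 genes with at least 1000 counts, 8 shared their counts with another gene in every library.

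From these counts, edgeR 4.0.16 in R 4.3.3 was run with filterByExpr by group (16542 genes left), TMM factors and 1 quasi-likelihood fit (glmQLFit, glmQLFTest, two-sided) of 4 group means to all 8 libraries, with 4 residual degrees of freedom. Contrasts were KO EBd2 minus KO ESC, the same in fl/fl, which shares no library with it, and their interaction. All adjusted p-values are Benjamini-Hochberg values over all genes tested. Standard errors are |log2 fold change| over the root of the F statistic. No replicate pair looked like 1 library deposited as 2 (chi-square per degree of freedom of 2.11 to 2.72). In simulated counts 99.5% of 200 genes changed by 2-fold were recovered, with 11 false calls among 16534 genes. Only those 200 genes were changed there, whereas 10721 were called in the KO contrast of the real counts. The recovery and false calls therefore describe the simulation alone and give no error rate for the calls reported here. Same-numbered deviations from group means correlated at -0.02 to 0.06 over the genes tested. With 2 libraries a group each deviation mirrors that of its partner, so this check cannot exclude a shared lot effect. Lots were not treated as pairs.

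Named genes were Skp1a, the 10 largest rises and falls in KO and the 6 largest interactions each way (called, at least 5 CPM in the higher group, libraries apart, named genes only), up to 4 called members per list by p, and a set of stage and pathway genes whatever their p; a few of these are not reported here. Members named outside that rule were chosen after their values were seen. Members and lists were chosen with earlier results of these data known. Alternatives were RLE scaling, library size only, other filters on low counts, thinning to equal depth, fits of fewer libraries, a lot block and DESeq2 1.42.0. Intervals and floors (3 counts) cover counting error only.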

Additional observations from a re-analysis of the deposited data

Results flagged for a closer look

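The EBd2 response differed between cells labelled KO and fl/fl cells, by the test of the interaction, in 7948 of 16542 genes (edgeR quasi-likelihood test, adjusted p under 0.05). Among naive and epiblast genes, the log2 difference of the KO response from the fl/fl response was 2.21 for Klf4, 2.48 for Tbx3, 0.68 for Nanog, -1.59 for Fgf5, -3.08 for Otx2, -2.88 for Pou3f1 and -2.21 for Dnmt3b. Among posterior and Wnt genes it was 5.22 for T, 6.55 for Cdx1, 4.95 for Cdx2, 6.51 for Nkx1-2, 2.42 for Axin2 and 4.27 for Dkk1. It was 2.65 for Gata6 and 4.52 for Sox17 among endoderm regulators. For other genes it was -0.24 for Skp1a, -2.26 for Fdps, 4.54 for Hoxb9, 2.00 for Zscan4f, 1.30 for Acta2, 2.49 for Col1a1 and 1.03 for Cdkn1a. Among the most negative differences by the naming rule were -3.19 for Myb, -3.04 for Gulp1, -2.97 for Cthrc1, -2.96 for Satb1 and -2.90 for Zfp608. For genes with 3 counts or fewer in fl/fl EBd2 the adjusted p stands in place of the fitted difference: 2.22e-06 for Msln, 0.000203 for Krtdap, 4.64e-06 for Sprr2a2, 8.57e-08 for Sp5, 0.00266 for Cnga4 and 1.31e-05 for Mageb4. No group holds 4 libraries, so no library could be tested for standing apart within its group.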

How the results depend on the processing

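Calls between KO EBd2 and KO ESC numbered 10721 in the analysis as reported and 9017 to 11318 under the other scalings, filters, thinning, fewer libraries and DESeq2, and 9 of 176 named genes tested changed direction or side of the threshold in at least 1 of 17 settings. A filter left some named genes untested: 163 were tested in all 17 settings, and 156 of these kept direction and side in all of them. Counting only differences shown to exceed 1.5-fold gave 3733 genes, and at least 2-fold 3245. Leaving out 1 library gave 9285 to 11028 calls in KO, 6944 to 7215 for the interaction and 8207 to 9824 in fl/fl. Library size scaling turned the interaction split from 3704 higher and 4244 lower to 5008 higher and 2992 lower, with a median shift of 0.16. With lot number as a replicate block the counts were 9168 in KO, 5619 for the interaction and 8351 in fl/fl. Whether lots share more than a number is not known, and the KO stages share only lot 1. Among named genes, signs turned only in those that were not called: Cdh1 (0.1293 with library size only, 0.0119 with the stricter filter and with the lot block, -0.0463 to 0.0015 leaving out 1 library, the latter without KO EBd2 lot 2), Eed (0.0634 with library size only), Fgf8 (-0.35, without KO EBd2 lot 1, to 1.72, without KO ESC lot 12) and Otx2 (0.13 with library size only, 0.0092 with the stricter filter, 0.11 with the lot block and -0.1282, without KO EBd2 lot 1, to 0.0783, without KO EBd2 lot 2). The cause was not tested. Depth in EBd2, less than in ESC, limits low genes, and with 2 libraries a group and lots of unknown kind, clone and culture effects cannot be told apart from genotype or stage.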

Other observations

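Genes that were read in 1 stage of KO cells and at 0 in the other were sorted by annotated class. The whole count table of 36255 genes holds 12774 pseudogenes and 21507 protein-coding genes. Of 41 genes with at least 40 counts in KO ESC and 0 in KO EBd2, 33 are annotated as pseudogenes and 6 as protein coding. Of 40 genes at 0 in KO ESC with at least 20 counts in KO EBd2, 16 are pseudogenes and 23 protein coding. By the same rules in fl/fl, pseudogenes made up 55 of 74 genes at 0 in EBd2 and 11 of 14 at 0 in ESC. Among 1237 pseudogenes tested, 233 were called higher and 434 lower in KO EBd2 (median -0.46), beside 4930 and 4943 of 14954 protein-coding genes (median 0.01). The deeper ESC libraries read low genes more often, and the part of depth and of shared reads in these counts was not tested.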
